A study of Mus musculus with 24 samples.

Results

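Ovaries of newborn mice with and without a conditional knockout of Nr5a1, the gene of the nuclear receptor SF-1 (steroidogenic factor 1), were compared at postnatal day 1 (PND1). The knockout ovaries (cKO) came from mice of genotype Nr5a1 f/f, Amhr2-cre Tg/+, and the controls from littermates of genotype Nr5a1 f/f, Amhr2-cre +/+. Both groups therefore carried 2 floxed Nr5a1 alleles, and carrying cre cannot be told apart from losing SF-1. The Amhr2 promoter directs cre to cells that express Amhr2, known in the ovary as supporting and stromal cells, and is not known to act in germ cells. The libraries were chosen by age and genotype as labelled: 8 of the 24 in the series, 4 of each genotype, the other 16 being from embryonic day 17.5 (ED17.5) and postnatal day 4 (PND4). Each library held poly(A) RNA of whole ovaries pooled from 3 to 5 mice, so p-values measure the spread between 4 such pools per genotype.

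In the mouse ovary, oocytes grow up in cysts, clusters of germ cells joined by cytoplasmic bridges, which break apart around birth while pregranulosa cells enclose single oocytes as primordial follicles. SF-1 is a transcription factor that binds DNA as a monomer and is known for switching on steroidogenic genes and the genes of gonadal supporting cells. Pregranulosa cells of the cortex respond to R-spondin and Wnt signals, and the Kit ligand, Notch, activin and BMP pathways carry signals between these cells and oocytes.

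The 8 libraries held 11668428 to 13641263 counts, and genotype separated the libraries along the first principal component, which held 52.5% of the variance. Control replicate 1 stood apart from the other controls, with a chi-square per degree of freedom of 17.0 to 20.1 against them, where all other pairs of replicates lay between 3.16 and 6.96. Its mitochondrial transcripts made up 1.25% of counts, against 2.03% to 2.7% in the other 7 libraries. Of 15756 genes that passed a filter on low counts, 4393 (27.9%) passed an adjusted p of 0.05 in edgeR's quasi-likelihood test on these 8 libraries, 2348 higher (14.9%) and 2045 lower (13.0%) in cKO ovaries. At least 2-fold changes were found for 688 risen (4.37%) and 306 fallen genes (1.94%), and the middle 50% of all log2 fold changes lay between -0.18 and 0.17. The 2 genotypes did not overlap in CPM for 2458 genes higher (15.6%) and 2207 lower (14.0%) in cKO ovaries. Libraries numbered 1 to 12 (2 per genotype) gave 2688 called genes, 53.6% of them higher in cKO, and those numbered 13 to 24 gave 1805, 71.7% higher, against 53.4% higher over all 8. Levels below are in CPM, counts per 1000000 counts of the scaled library, in control or cKO replicates 1 to 4, in that order, with the controls first wherever both genotypes are given, and each log2 fold change is followed by ± its standard error (SE), with n = 4 libraries per genotype. CPM are shares of a library of a mixed tissue, so a change in the number of cells of a type and a change of RNA per cell cannot be told apart.

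Nr5a1 transcripts stood at 50.6% of the control level in cKO ovaries. Nr5a1 (ENSMUSG00000026751, GRCm38 chromosome 2, 38692656 to 38714542, minus strand) was at 114, 127, 148 and 152 CPM in the controls and at 74.8, 62.2, 69.6 and 66.8 CPM in cKO libraries. The genotypes did not overlap, and the log2 fold change was -0.98 ± 0.09 (edgeR adjusted p = 3.41e-06; exact two-sided permutation p = 0.0286, the smallest that 4 against 4 libraries can give). Counts of the whole gene include reads outside the deleted part, so the remaining level is no measure of intact SF-1 transcript. Amhr2 (ENSMUSG00000023047, chromosome 15, 102445367 to 102454633, plus strand), which encodes the receptor of anti-Müllerian hormone and whose promoter drives the cre, was at 344, 276, 329 and 313 CPM in controls and at 78, 63.8, 69 and 59.3 CPM in cKO ovaries. It fell by 2.23 ± 0.09 (edgeR adjusted p = 5.33e-09, exact permutation p = 0.0286), with no overlap, to 21.4% of the control mean. Among libraries 1 to 12 alone the log2 fold changes of Nr5a1 and Amhr2 were -1.11 and -2.26, and among libraries 13 to 24 -0.82 and -2.16. For Amhr2, too, presence of cre and loss of SF-1 cannot be told apart.

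Among abundant genes, those whose genotypes did not overlap and whose mean was 20 CPM or more, the 10 largest falls, Amhr2 among them, included a Wnt ligand, an R-spondin receptor and metabolic enzymes. Acsbg1, an acyl-CoA synthetase gene, was at 49.1, 57.8, 64.3 and 71.9 CPM in controls and at 12.8, 9.65, 12.1 and 7.97 CPM in cKO ovaries, a log2 change of -2.52 ± 0.15 (edgeR adjusted p = 2.34e-07). Wnt6 (ENSMUSG00000033227, chromosome 1, 74771892 to 74785322, plus strand), a Wnt ligand gene, was at 236, 222, 267 and 266 CPM in controls and 68.9, 58.5, 58.5 and 53.6 CPM in cKO, a change of -2.05 ± 0.09 (edgeR adjusted p = 5.33e-09). The lowest control library lay far above the highest cKO library. The other members of this group were Lgr5 (-2.36), a receptor gene for R-spondins, Aldh1a7 (-2.02), an aldehyde dehydrogenase gene, Prcd (-2.01), a photoreceptor disc gene, Kcnq1 (-1.89), a potassium channel gene, Espn (-1.86), which encodes the actin bundling protein espin, Tmem184a (-1.78) and Klhdc7a (-1.74).

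The largest rises among abundant genes were in receptors, matrix proteins and a calcium channel. Ntrk3 (ENSMUSG00000059146, chromosome 7, 78175959 to 78738012, minus strand), the receptor gene of neurotrophin-3, was at 5.77, 7.07, 8.3 and 6.25 CPM in controls and at 34.4, 38, 39.7 and 40.8 CPM in cKO ovaries, a rise of 2.48 ± 0.11 (edgeR adjusted p = 1.13e-08). Col6a5, a collagen VI chain gene, was at 50.2, 67, 67.7 and 53.3 CPM in controls and 238, 230.4, 285 and 314 CPM in cKO, a rise of 2.16 ± 0.13 (edgeR adjusted p = 3.86e-07). Tnc, which encodes the matrix protein tenascin C, was at 77.2, 104, 106 and 91.4 CPM in controls and 358, 300.1, 426 and 375 CPM in cKO, a rise of 1.95 ± 0.12 (edgeR adjusted p = 4.05e-07). In all of these the lowest cKO library exceeded the highest control library. The others were Ssc5d (2.13), a scavenger receptor cysteine-rich gene, Cacna1g (2.09), a T-type calcium channel gene, Ahnak2 (1.95), Meox1 (1.91), a homeobox gene, Ndnf (1.89), a secreted neurotrophic factor gene, Adcyap1r1 (1.89), the receptor gene of PACAP, and Col15a1 (1.88), a basement membrane collagen gene.

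**Figure D1:**
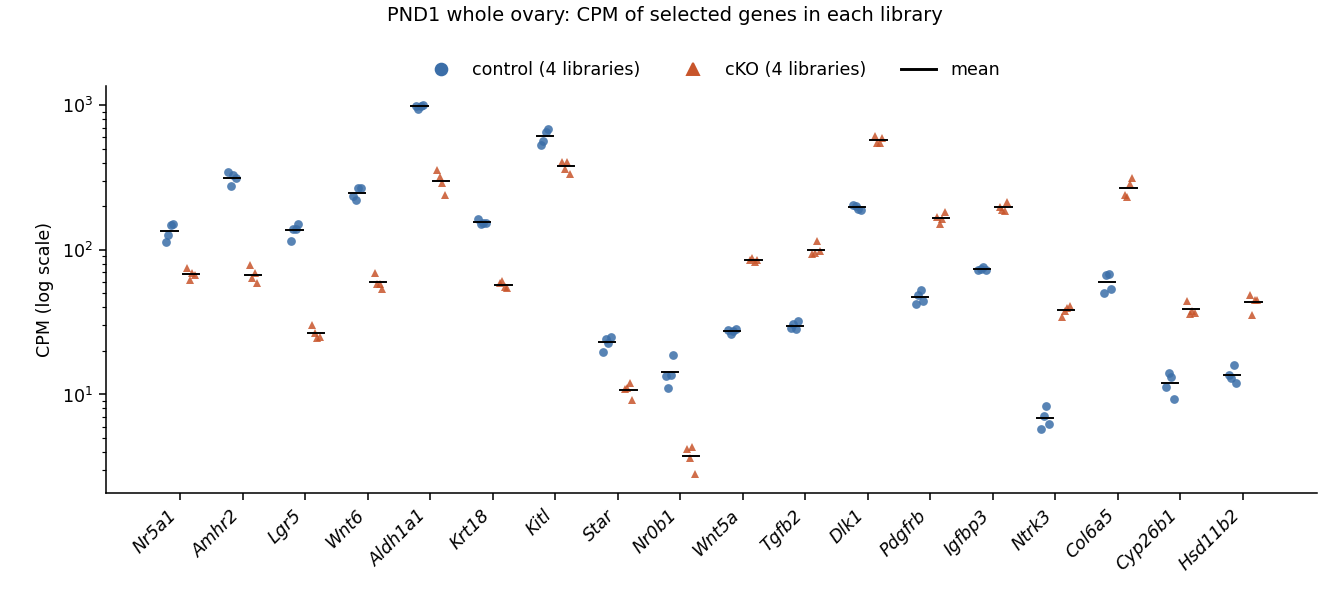
CPM on a log axis of 18 genes in each of the 8 PND1 libraries, circles for the 4 control libraries, triangles for the 4 cKO libraries and a black line for each mean. Genotypes do not overlap in any of the genes drawn; Nr5a1 stands at 50.6% of control, while Lgr5 falls from a mean of 136 to 26.6 CPM and Ntrk3 rises from 6.85 to 38.2 CPM.

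SF-1 binds sites with the core AAGGTCA, and promoter windows from RefSeq (GRCm38.p6, 250 bases before to 50 after each start) were searched for these letters on both strands. The core was found in 4.66% of all 27025 windows and in 3.16% of the 11801 tested genes that had one. Among all genes that passed the test, it was in 58 of 1563 windows of those that fell (3.71%) and in 40 of 1698 of those that rose (2.36%). It was in 17 of 215 windows of genes that fell at least 2-fold (7.91%), in 12 of 469 of those that rose at least 2-fold (2.56%), and in 3.22% of windows of genes that did not pass. The longer CAAGGTCA, which contains the core, was in 1.53% of all windows, in 10 of 215 (4.65%) of the genes that fell at least 2-fold and in 6 of 469 (1.28%) of those that rose at least 2-fold. These shares are descriptions without a test, and a match is not a shown binding site. Among the largest abundant falls, Prcd and Amhr2 held the core before the start, and Lgr5, Kcnq1 and Nr5a1 are not in the promoter table used here. The stretches below hold the longer sequence before the start of genes that fell at least 2-fold with a mean of at least 4 CPM, and show what such matches look like in these genes. Predicted gene models and any genes on a chromosome that was set aside were left out, so the stretches may not cover all such genes. Amhr2 and Prcd were taken by the naming rule, the other genes after their values were seen. Capitals mark CAAGGTCA or, in Chit1, its reverse complement.
Cst8 (chr2:148798761-148798828, plus strand): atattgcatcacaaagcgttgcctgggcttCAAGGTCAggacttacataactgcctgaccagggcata
Amhr2 (chr15:102445117-102445172, plus strand): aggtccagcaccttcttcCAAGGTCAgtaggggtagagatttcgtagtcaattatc
Chit1 (chr1:134111142-134111209, plus strand): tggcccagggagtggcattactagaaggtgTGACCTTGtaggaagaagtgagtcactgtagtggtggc
Prcd (chr11:116657036-116657103, plus strand): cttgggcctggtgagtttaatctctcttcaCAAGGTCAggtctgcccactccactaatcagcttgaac
Kcnf1 (chr12:17176927-17176994, minus strand): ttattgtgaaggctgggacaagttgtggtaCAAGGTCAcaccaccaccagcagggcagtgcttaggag
Susd3 (chr13:49248413-49248480, minus strand): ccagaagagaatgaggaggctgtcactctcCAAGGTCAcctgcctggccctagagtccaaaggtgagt

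Of these genes Cst8, a cystatin gene, was at 13.6, 10.4, 12.6 and 12.6 CPM in controls and 1.92, 2.15, 1.64 and 0.369 CPM in cKO ovaries (-3.03 ± 0.31, edgeR adjusted p = 1.63e-05). Chit1, a chitinase gene, was at 7.17, 7.15, 7.56 and 7.99 CPM in controls and 2.09, 1.57, 1.98 and 1.11 CPM in cKO ovaries (-2.15 ± 0.19, edgeR adjusted p = 1.79e-06). Kcnf1, a potassium channel subunit gene, changed by -1.21 and Susd3 by -1.13. The match in Amhr2 ended 225 bases before the start and that in Prcd 35 bases before it.

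Pregranulosa genes were mostly lower. Falls numbered 15 and rises 1 among 22 tested, and their median log2 change was -0.59 against -0.024 over all genes tested. The summed CPM of the list ran from 3522 to 4087 in controls and from 2030 to 2240 in cKO ovaries. In the R-spondin responsive cortical group 7 of 12 fell. Aldh1a1, whose enzyme makes retinoic acid, was at 981, 944, 991 and 1009 CPM in controls and 354, 318, 291 and 239 CPM in cKO ovaries (-1.71 ± 0.10, edgeR adjusted p = 8.58e-08). Gng13, a G protein subunit gene, was at 26.1, 34.3, 39.4 and 41.9 CPM and 6.1, 3.05, 3.27 and 3.25 CPM (-3.18 ± 0.22). Both differed without overlap, while Wnt4 (-0.12), Upk3b (0.03), Lhx9 (-0.25) and Emx2 (-0.33), genes of early gonad cells and surface epithelium, did not pass. Without control replicate 1, Lhx9 (adjusted p = 0.00111) and Emx2 (0.000101) passed. Among genes of the Foxl2 positive group 8 of 10 fell, including Foxl2 itself, the forkhead factor that keeps granulosa identity, at 244, 245, 276 and 265 CPM in controls and 192, 148, 199.6 and 186 CPM in cKO (-0.51, edgeR adjusted p = 0.000538). The member that rose was Nr5a2, the close relative of SF-1, at 29.8, 39, 38.2 and 33.5 CPM in controls and 50.7, 46.3, 53.4 and 56.7 CPM in cKO ovaries (0.56 ± 0.09, edgeR adjusted p = 0.000472). Esr2, the granulosa estrogen receptor gene, was at 13.7 and 14.3 CPM and did not pass (adjusted p = 0.737).

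The R-spondin and Wnt list moved in both directions, with 12 of 24 genes that fell and 5 that rose (median -0.26). Among ligands Wnt6 (-2.05), Wnt2b (-0.92), Rspo1 (-0.61) and Rspo2 (-0.48) fell, and Wnt5a (1.63), Rspo3 (1.52) and Wnt2 (1.29) rose. Wnt5a, a ligand of non-canonical Wnt signalling, was at 28.1, 26.2, 27.3 and 28.2 CPM in controls and 85.7, 87.2, 82.4 and 84.6 CPM in cKO ovaries (edgeR adjusted p = 3.7e-09). Of the R-spondin receptors, Lgr4 (-0.41) and Lgr5 (-2.36) fell while Lgr6 was at 1.81, 1.62, 2.3 and 2 CPM in controls and 11.9, 17.2, 19.6 and 16.2 CPM in cKO ovaries, a rise of 3.06 ± 0.18 (edgeR adjusted p = 6.46e-08). The receptor genes of a single family moved in both directions with no overlap between genotypes in any of the 3. Of 7 targets of beta-catenin, the effector of canonical signalling, 4 fell, Axin2 (-0.70), Sp5 (-1.10), Lef1 (-0.80) and Tcf7 (-0.45), 1 rose, Nkd2 (0.36), and 2 did not pass, Nkd1 (0.02) and Notum (0.44). Notum passed without control replicate 3 (adjusted p = 0.0447) or cKO replicate 2 (0.0361). The feedback gene Rnf43 (-1.35) fell.

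Steroidogenic genes, the classical targets of SF-1, were mostly lower or did not pass. Of 25 tested, 12 fell and 1 rose (median -0.29). Star, which brings cholesterol into mitochondria, was at 19.7, 24.4, 22.7 and 24.9 CPM in controls and 10.9, 11.1, 12.1 and 9.15 CPM in cKO ovaries (-1.09 ± 0.11, edgeR adjusted p = 6.93e-06). Soat1, whose enzyme esterifies cholesterol for storage, was at 347, 395, 399.6 and 407 CPM and 206, 179, 202 and 182 CPM (-1.01 ± 0.07). Neither gene overlapped between genotypes. The electron donors of mitochondrial steroid enzymes fell, Fdxr by 1.18 and Fdx1 by 0.39. Srd5a2, a steroid 5-alpha reductase gene, was at 3.21, 5.11, 6.23 and 6.08 CPM in controls and 0.752, 1.16, 0.689 and 1.18 CPM in cKO ovaries (-2.43 ± 0.27). Hsd3b1, a 3-beta-hydroxysteroid dehydrogenase gene, changed by -0.33 with overlap, a call lost without control replicate 2, 3 or 4 or cKO replicate 2 (adjusted p = 0.0638 to 0.0862), and Akr1c14 by -0.41 without. Cyp11a1, which opens the pathway, was at 4.78, 6.13, 6.23 and 6.5 CPM in controls and 4.1, 2.97, 8.09 and 2.88 CPM in cKO and did not pass (adjusted p = 0.363; 0.0076 without cKO replicate 3). Cyp17a1, which makes androgens, was at 1.81, 2.72, 2.67 and 1.42 CPM and 1.34, 0.825, 0.947 and 1.18 CPM (-1.0, edgeR adjusted p = 0.0147), and it no longer passed when control replicate 2 (adjusted p = 0.0548) or 3 (0.0556) was left out. The luteinizing hormone receptor gene Lhcgr changed by -1.78. Without control replicate 3 the number of steroidogenesis genes that fell was 7, and over all libraries left out in turn it was 7 to 12. The member that rose was Hsd11b2, whose enzyme inactivates glucocorticoids, at 13.7, 13, 16 and 12.1 CPM in controls and 48.9, 35.3, 45.3 and 44.8 CPM in cKO ovaries, a rise of 1.67 ± 0.12 (edgeR adjusted p = 2.12e-07). In the model of all 24 libraries, where the spread is shared with the other ages, 4 members fell, and the calls of Star (adjusted p = 0.187), Fdx1 (0.158), Hsd3b1 (0.786), Cyp17a1 (0.789), Lhcgr (0.0747) and Akr1c14 (0.054) were lost.

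Cholesterol synthesis genes were lower in 13 of 25 members and higher in 1 (median -0.23). Hmgcs1, at the start of the mevalonate pathway, was at 282, 247, 245 and 272 CPM and 158, 141, 156 and 148 CPM (-0.79 ± 0.06). Hmgcs1, Msmo1 (-0.69) and Sqle (-0.37) did not overlap between genotypes. The sterol sensor and its transcription factor fell as well, Scap by 0.45 and Srebf2 by 0.40. The count of fallen members was 8 without cKO replicate 2 or 3 and 7 without cKO replicate 4, and the count of risen members was 0 without any 1 of control replicates 2 to 4 or cKO replicates 1 to 3. The model of all 24 libraries gave 6 fallen and 0 risen members. The calls of Msmo1 (adjusted p = 0.0917) and Sqle (0.149) were lost there.

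Of 40 nuclear receptor genes, 14 rose and 7 fell (median 0.09). Over all genes tested 14.9% rose and 13.0% fell, so the rises exceeded that share and the falls were near it. The largest falls were in the atypical receptors that lack a DNA-binding domain. Nr0b1, which encodes DAX1, was at 13.4, 11.1, 13.6 and 18.8 CPM in controls and 4.18, 3.63, 4.3 and 2.8 CPM in cKO ovaries (-1.93 ± 0.18, edgeR adjusted p = 3.5e-06). Nr0b2, which encodes SHP, was at 1.4, 0.936, 1.78 and 2.33 CPM in controls and 0.0836, 0, 0.172 and 0.148 CPM in cKO (-3.87 ± 0.51, edgeR adjusted p = 6.72e-05); cKO replicate 2 had no count, so the size of this change depends on the prior count. Ppara, the fatty acid sensing receptor gene, changed by -1.23. Among receptors that rose, Nr2f2, a stromal and theca cell factor, was at 52, 62.6, 66.7 and 64.8 CPM in controls and 131, 130.1, 135 and 132 CPM in cKO (1.10 ± 0.07). Esr1, the estrogen receptor alpha gene, rose by 0.35, and the bile acid receptor gene Nr1h4 rose by 2.09 from a low level, 0.659, 0.851, 0.593 and 0.416 CPM in controls against 3.18, 2.23, 2.33 and 3.1 CPM in cKO ovaries.

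Retinoic acid, made from vitamin A, induces meiosis in fetal germ cells and is cleared by CYP26 enzymes. In its list 11 of 19 genes rose and 2 fell (median 0.33). Synthesis genes moved in both directions, with Aldh1a1 (-1.71) and Aldh1a2 (-0.23) lower and Aldh1a3 (0.89) higher. Cyp26b1, which degrades retinoic acid, was at 11.3, 14.1, 13.2 and 9.24 CPM in controls and 44.6, 36.3, 37.8 and 36.8 CPM in cKO ovaries, a rise of 1.70 ± 0.12 (edgeR adjusted p = 2.97e-07). Stra6, a vitamin A uptake receptor gene, was at 16.9, 24.2, 28.5 and 23.2 CPM and 40.9, 49.7, 54.1 and 47.1 CPM (1.04). The binding proteins Crabp1 (1.14) and Crabp2 (1.15) and the receptors Rara (0.27), Rarb (0.98) and Rarg (0.91) rose too, each without overlap between genotypes; Rara did not pass without cKO replicate 3 (adjusted p = 0.061), nor Aldh1a2 in the model of all 24 libraries (0.225).

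**Figure D2:**
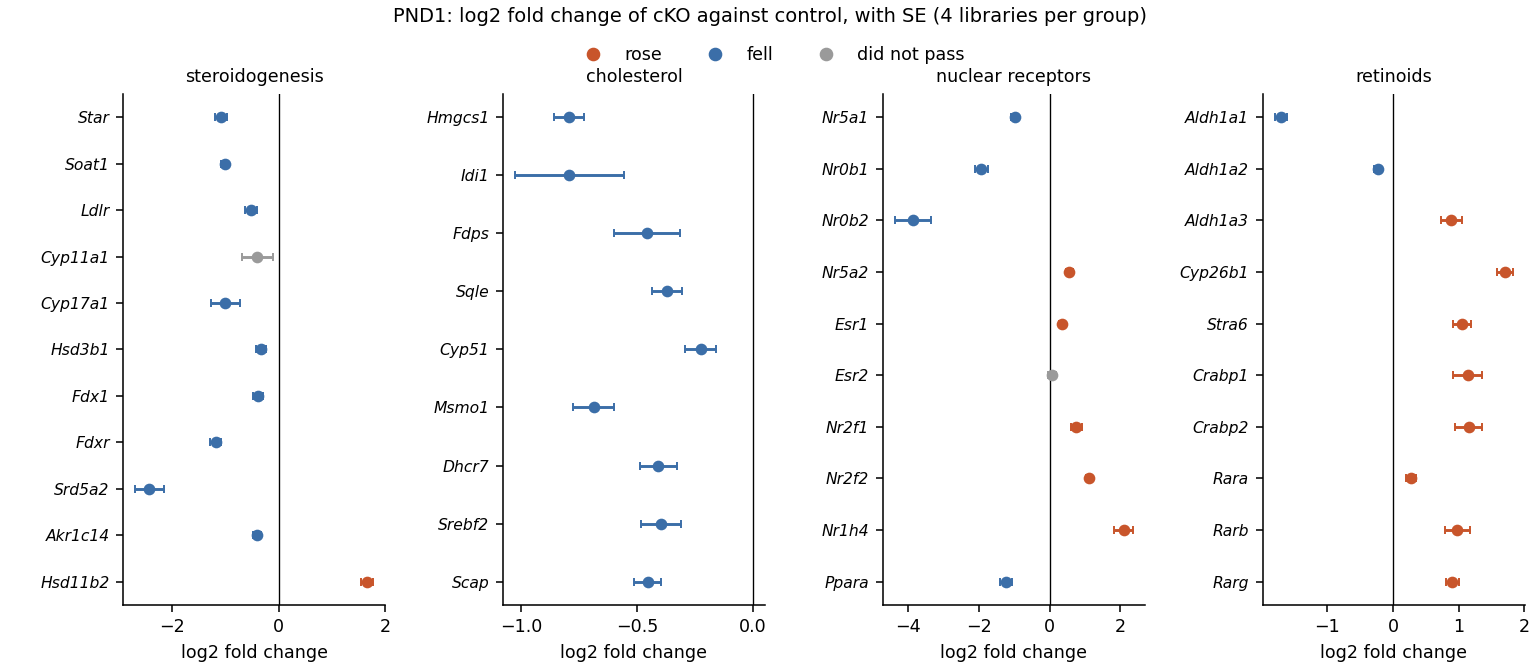
Log2 fold change of cKO against control (horizontal axis, points with bars of 1 SE) for genes of steroidogenesis, cholesterol synthesis, nuclear receptors and retinoids, coloured by whether the gene rose, fell or did not pass. All drawn cholesterol genes lie below 0, Hsd11b2 (1.67) is the only steroidogenesis gene drawn above 0, and Nr0b2 (-3.87) lies lowest among the receptors.

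Few germ cell transcripts passed the test at this age of cyst breakdown. Of 7 genes of intercellular bridges and cytokinesis 0 rose and 0 fell by edgeR's adjusted p or by DESeq2, and 1 was lower at an unadjusted p under 0.05. Tex14, which keeps the bridges open, was at 53.6, 50.3, 38.9 and 42.5 CPM in controls and 34.5, 37.3, 38.8 and 42.4 CPM in cKO ovaries (-0.27 ± 0.10, adjusted p = 0.0644), and the genotypes overlapped; it passed without control replicate 3 (adjusted p = 0.0223). Of 24 genes of the meiotic chromosome axis and recombination 1 fell (median -0.05), and none rose in edgeR or DESeq2, nor at an unadjusted p under 0.05. Sycp3, a synaptonemal complex gene, was at 381, 264, 255 and 248 CPM in controls and 248, 324, 221 and 252 CPM in cKO (adjusted p = 0.612). Control replicate 1 and cKO replicate 2 were the highest of their groups, as they were in Ddx4, the germ cell helicase gene, at 179, 133, 127 and 127 CPM and 132, 153, 116 and 124 CPM (adjusted p = 0.562). The member that fell was Rec8, a meiotic cohesin gene, at 61.7, 60.0, 67.2 and 75.4 CPM in controls and 32.4, 34, 35 and 33.1 CPM in cKO ovaries, a fall with no overlap (-0.97 ± 0.08, edgeR adjusted p = 8.9e-07).

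Oocyte transcription factors and genes of growing oocytes gave 1 fall in 21 (median -0.23); 0 rose in edgeR or DESeq2, and 1 was higher at an unadjusted p under 0.05. Figla, which starts the zona pellucida program, was at 87.9, 62.5, 61.6 and 59.9 CPM in controls and 72.2, 87, 54.9 and 64.6 CPM in cKO ovaries, and Nobox, which acts in early follicles, at 126, 129, 113 and 111 CPM and 110.5, 109.6, 118 and 132 CPM. Their log2 changes were 0.04 ± 0.16 and -0.03 ± 0.07 (adjusted p = 0.901 and 0.83 in edgeR). Zp3, a zona pellucida gene, ranged from 29.8 to 83.2 CPM among cKO libraries and from 56.2 to 85.5 CPM among controls. The member that fell was Tle6, a maternal effect gene (-0.33). Log2 changes ran from -0.34 to -0.17 in the 8 maternal effect genes tested and from -0.39 to -0.14 in the 3 zona pellucida genes. They ran from -0.37 to 0.23 in the 8 transcription factor genes. Of 7 genes of oogonia and pluripotency 0 rose and 0 fell in edgeR, while 1 fell in DESeq2 and, in edgeR, at an unadjusted p under 0.05 or without control replicate 3 or cKO replicate 4, with the germ cell RNA-binding gene Dazl at 201 and 218 CPM. In the piRNA list, which silences transposons, 3 of 15 fell, by 0.24 to 0.4, and 1 fell when control replicate 1, 2 or 3 or cKO replicate 1, 3 or 4 was left out. All 15 piRNA genes had log2 changes below 0, from -0.48 to -0.02 (median -0.21). Tdrd5, a Tudor protein gene, was the member with the smallest p (-0.34, edgeR adjusted p = 0.00373).

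Kit on oocytes and its ligand from pregranulosa cells act through PI3K and Akt on oocyte survival and activation. Kitl (ENSMUSG00000019966, chromosome 10, 100015630 to 100100416, plus strand) was at 532, 565, 649 and 688 CPM in controls and 405, 364, 407 and 335 CPM in cKO ovaries, a fall of 0.69 ± 0.09 (edgeR adjusted p = 5.46e-05). Kit was at 744, 625, 579 and 571 CPM and 512, 584, 438 and 499 CPM (-0.31 ± 0.10, edgeR adjusted p = 0.0328), with overlap, since cKO replicate 2 exceeded control replicates 3 and 4. The Kit call was lost without control replicate 1 or 2 or cKO replicate 1, 3 or 4 (adjusted p = 0.0713 to 0.0999), and in the model of all 24 libraries (0.221). Cdkn1b, which encodes the cell cycle inhibitor p27, was at 279, 352, 346 and 416 CPM in controls and 217, 218, 238 and 223 CPM in cKO, without overlap (-0.64 ± 0.10). Of 28 genes in the list 4 rose and 5 fell (median -0.01). Over all genes tested 14.9% rose and 13.0% fell, so both counts were near those shares. Pik3r1 (0.37) and Akt1 (0.35) were higher, while Foxo3 (-0.15) did not pass. The number that rose was 2 without cKO replicate 3 or 4, and the number that fell was 2 without cKO replicate 3 and 3 without control replicate 2 or cKO replicate 1 or 4.

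Apoptosis genes moved in both directions, 6 up and 9 down of 36 (median -0.03), where 14.9% of all genes rose and 13.0% fell, so the share that rose was close to that of all genes. The largest rises were in genes of BH3-only proteins, which start mitochondrial apoptosis: Bcl2l11 was at 20.0, 21.4, 20.8 and 21.3 CPM in controls and 43, 44.4, 48.4 and 43.5 CPM in cKO ovaries (1.10 ± 0.07, edgeR adjusted p = 1.33e-07), and Bmf at 39.4, 40.8, 47.6 and 49 CPM and 99.9, 89, 101 and 95.3 CPM (1.12 ± 0.08). Genotypes did not overlap in either gene. The death receptor gene Fas (0.82) and the apoptosome gene Apaf1 (0.42) also rose. Lower were the survival gene Bcl2l2 (-0.51), the initiator caspase gene Casp9 (-0.28), the DNA damage kinase gene Atm (-0.42) and Trp63 (-0.31). Trp63 encodes the p63 protein of the oocyte DNA damage checkpoint, and its call was lost in the model of all 24 libraries (edgeR adjusted p = 0.343).

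**Figure D3:**
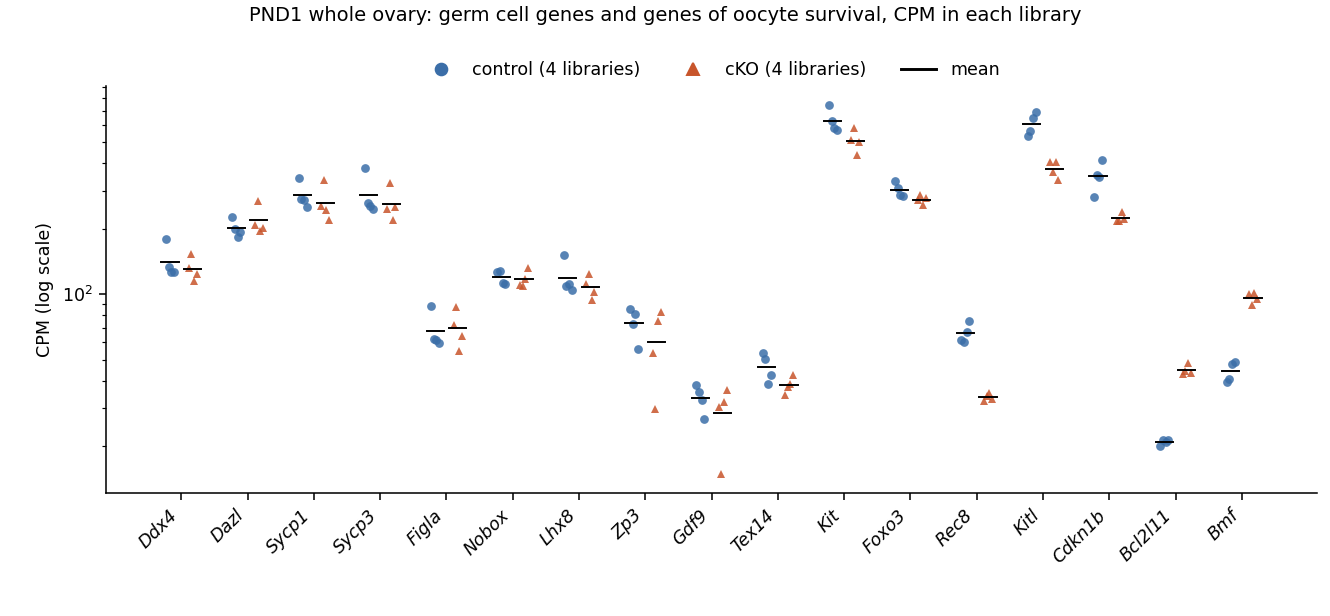
CPM on a log axis of germ cell genes and genes of oocyte survival in each PND1 library, circles for the 4 control libraries, triangles for the 4 cKO libraries and a black line for each mean. Control and cKO libraries overlap in Ddx4, Sycp3, Figla and Nobox, whereas Rec8 (-0.97), Kitl (-0.69) and Cdkn1b (-0.64) lie lower and Bcl2l11 (1.10) and Bmf (1.12) higher in cKO ovaries without overlap.

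In the activin, inhibin and BMP list 25 of 51 genes rose and 10 fell (median 0.22). The inhibin and activin subunits of granulosa cells moved in both directions: Inhbb was at 67.9, 56.6, 64.8 and 60.9 CPM in controls and 32.9, 28.9, 31.8 and 31.1 CPM in cKO ovaries (-1.01 ± 0.07), Inha changed by -0.88, and Inhba by 0.93. Among other ligands Bmp2 (-0.58) fell, and Gdf10 (1.52) and Bmp4 (1.36) rose. Tgfb2, a transforming growth factor beta gene, was at 28.8, 30.5, 28.2 and 32.2 CPM in controls and 94, 94.5, 115 and 98.5 CPM in cKO, a rise of 1.75 ± 0.08 (edgeR adjusted p = 1.14e-08). Of the receptors, Tgfbr2 (1.09), Acvr1 (0.98) and Eng (1.22) rose and Amhr2 fell. Antagonists were higher in 7 of 9, among them Chrd (1.13) and Fstl1 (0.72), while Fst, the follistatin gene, fell by 0.46. Target genes of BMP signalling were at 77, 75.6, 80.7 and 81.1 CPM in controls and 128, 116, 122 and 123 CPM in cKO for Id3 (0.64 ± 0.06), with Id4 at 1.11, and Smad3, the activin and TGF-beta effector, fell by 0.55. The calls of Inhbb, Inha and Inhba were lost in the model of all 24 libraries (adjusted p = 0.143, 0.236 and 0.105), as was that of Fst (0.0543).

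Notch genes rose in 13 of 25 and fell in 2 (median 0.38). Among ligands, Dlk1, a non-canonical ligand gene, was at 204, 200.5, 193 and 189 CPM in controls and 617, 553, 546 and 591 CPM in cKO ovaries (1.55 ± 0.06, edgeR adjusted p = 3.7e-09), and Dll4 (0.73) rose. Jag1, the ligand gene of germ cells, was at 31.6 and 34.5 CPM (adjusted p = 0.46). Of the receptors, Notch3, of mural and stromal cells, was at 27, 22, 25.9 and 20.6 CPM and 73.1, 62.8, 70.3 and 81.1 CPM (1.59), whereas Notch2, the receptor gene of pregranulosa cells, was at 224, 258, 244 and 241 CPM in controls and 229, 227, 242 and 229 CPM in cKO (adjusted p = 0.484). The targets moved both ways: Hes1 was at 89.4, 78.1, 86.4 and 84.3 CPM and 54.2, 53, 60.3 and 51.4 CPM (-0.63 ± 0.07), and Nrarp (0.74), Hey2 (0.76) and Heyl (0.41) rose. The number of Notch genes that fell was 1 without control replicate 2, 3 or 4 or cKO replicate 1, 3 or 4. In the Hedgehog list, a pathway from granulosa ligands to theca precursors, 7 of 11 rose and 2 fell. All 3 effector genes rose, Gli2 from a mean of 14.5 to 41.2 CPM (1.5 ± 0.14), Gli1 by 1.31 and Gli3 by 0.35, and the co-receptor gene Gas1 rose by 0.99. The receptor and target Ptch1 was lower, at 76.2, 82.5, 82.2 and 81.8 CPM in controls and 56.7, 63.9, 56.8 and 61.8 CPM in cKO ovaries (-0.43 ± 0.07, edgeR adjusted p = 0.000194), and the ligand gene Dhh, near 1 CPM, did not pass (adjusted p = 0.21). In the model of all 24 libraries the calls of Ptch1 (adjusted p = 0.382) and Heyl (0.24) were lost.

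Most genes of the FGF, PDGF and VEGF systems rose. Of 25 FGF genes 15 rose and 2 fell (median 0.43), with the ligands Fgf1 (1.57) and Fgf2 (0.86), the receptor Fgfr3 (1.42) and the feedback phosphatase Dusp6 (0.80) among the risen. The number of FGF genes that fell was 1 without control replicate 3 or 4 or cKO replicate 1, 3 or 4. In the PDGF, VEGF and angiopoietin list 20 of 26 rose and 1 fell (median 0.85), and all 9 receptor genes rose. Pdgfrb, the PDGF receptor gene of pericytes and stroma, was at 42, 49, 53.2 and 44.1 CPM in controls and 169, 152, 163 and 184 CPM in cKO ovaries (1.82 ± 0.08, edgeR adjusted p = 1.13e-08). Pgf, the placental growth factor gene, rose from 0.989, 1.7, 0.816 and 1.25 CPM to 6.19, 7.01, 6.11 and 5.39 CPM (2.38 ± 0.22), and the angiopoietin gene Angpt2 by 1.70. Vegfa, the main endothelial growth factor gene, was at 48.2 and 49.7 CPM and did not pass (adjusted p = 0.751).

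The insulin-like growth factor list had 13 rises and 1 fall (2 without cKO replicate 4) of 18 (median 0.77). Igfbp3, a binding protein gene, was at 72.4, 74.2, 75.5 and 72.4 CPM in controls and 198, 188, 186 and 215 CPM in cKO ovaries (1.42 ± 0.06, edgeR adjusted p = 5.55e-09), a narrow spread in both groups. The proteases that act on binding proteins rose too, Htra3 (1.66) and Pappa (1.31), as did the ligand Igf1, at 108, 141, 133 and 140.5 CPM and 232, 221, 239.7 and 213 CPM (0.79). Neurotrophin and GDNF receptors rose in 6 of 9. Ngfr, the shared neurotrophin receptor gene, was at a mean of 30.03 CPM (SD 4.76) in controls and 90.9 CPM (SD 6.4) in cKO (1.60 ± 0.10), and Ntrk2 (1.74), Gfra1 (1.94) and Gfra2 (1.72) joined Ntrk3. Of the ligands, Nrtn, which encodes the GDNF relative neurturin, was at 23.5, 12.8, 17.6 and 15.7 CPM and 9.45, 6.68, 7.66 and 7.16 CPM (-1.17 ± 0.18), and Gdnf did not pass (0.96, adjusted p = 0.116; 0.0306 without control replicate 3). Hippo pathway targets rose in 4 of 6, with Ccn1 at 0.99 and Ccn2 at 0.89, while 4 of 10 kinases and adaptors fell, led by Wwc1 (-0.56).

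**Figure D4:**
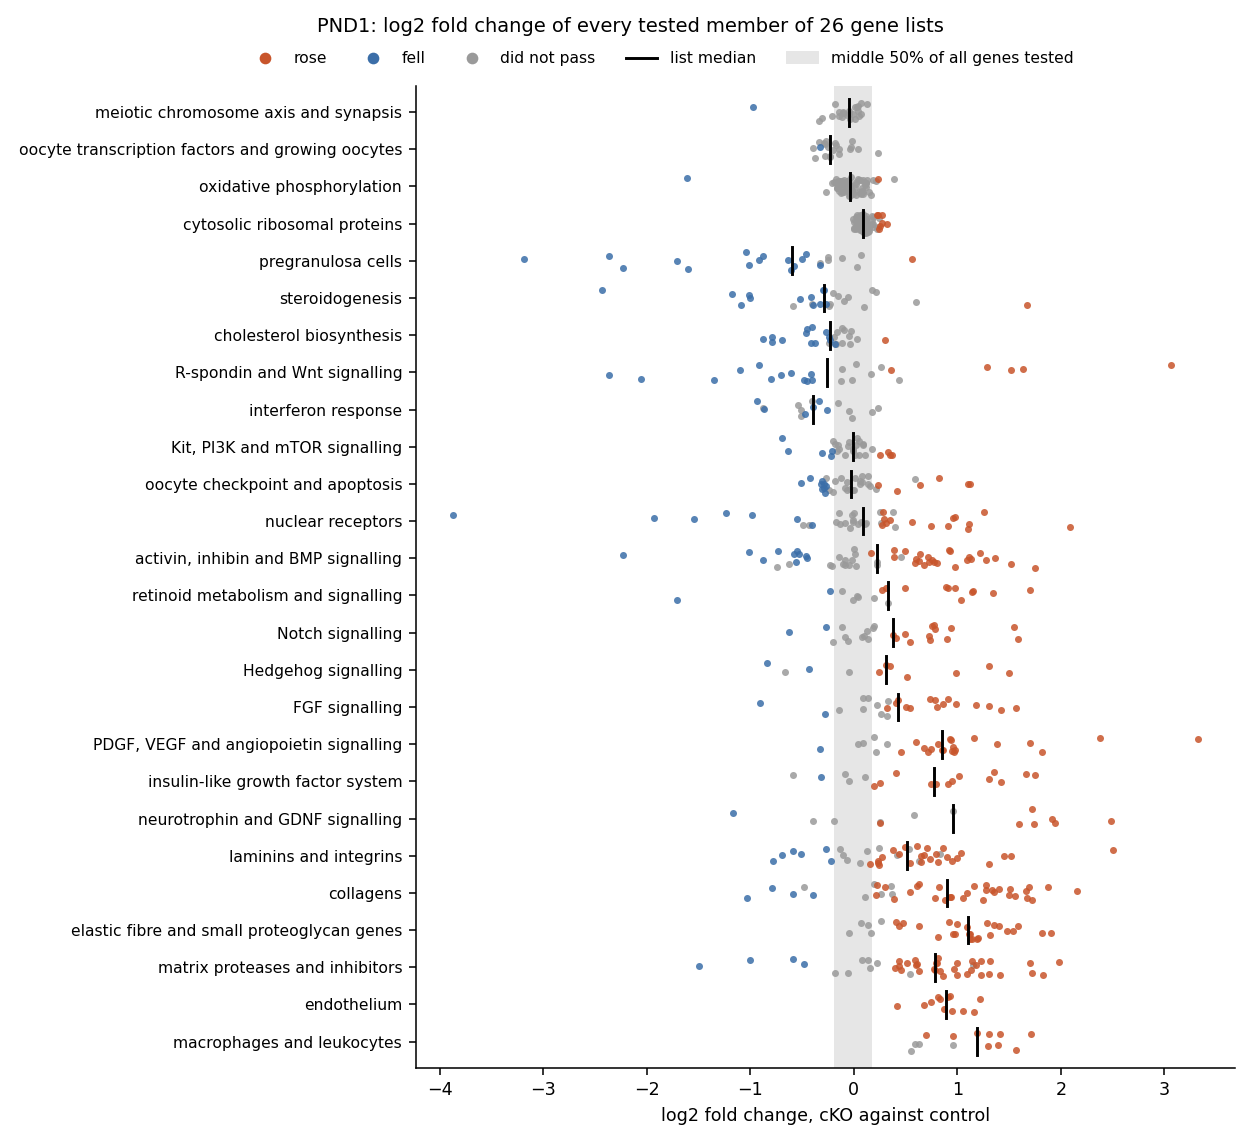
Log2 fold change of cKO against control at PND1 (horizontal axis) for every tested member of 26 gene lists, 1 point per gene, coloured by whether it rose, fell or did not pass, with the list median as a black line and the middle 50% of all genes tested as a grey band. Medians run from -0.59 in pregranulosa cells to 1.19 in macrophages and leukocytes, and meiotic genes lie near 0 apart from Rec8.

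Most extracellular matrix genes rose. In the collagen list 30 of 40 rose and 4 fell (median 0.90), the number that fell being 2 without control replicate 3 or cKO replicate 2 and 1 in the model of all 24 libraries. Fibril and beaded filament chains were among those that rose, such as Col5a1 at 253, 267, 234 and 231 CPM in controls and 710.3, 615, 724 and 742 CPM in cKO ovaries (1.5 ± 0.07), while Col4a4, a basement membrane chain, fell by 1.03. Of 30 elastic fibre and small proteoglycan genes 25 rose (median 1.10). Loxl1, whose enzyme crosslinks elastin, was at 94.9, 106, 127 and 96.2 CPM and 362, 327, 418 and 393 CPM (1.82 ± 0.10), and the proteoglycan genes Podn (1.91) and Prelp (1.59) and Bgn (1.54) rose. Matrix proteases and their inhibitors gave 32 rises and 4 falls of 44 (median 0.79). Mmp2, a gelatinase gene, was at 328, 334, 346 and 320.2 CPM in controls and 784, 728, 774 and 728 CPM in cKO (1.18 ± 0.06, edgeR adjusted p = 1.14e-08), and Mmp15, a membrane-type protease gene, at 95.5, 115, 121 and 129 CPM and 45.3, 37, 42.5 and 39.5 CPM (-1.49 ± 0.10). These proteases moved in opposite directions, and the same was seen in the ADAMTS family with Adamts2 (1.32) and Adamts16 (-1.0) and among inhibitors with Timp2 (0.86) and Timp1 (-0.59).

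Most laminin and integrin genes rose, and some adhesion genes fell. Of 42 laminin and integrin genes 26 rose and 6 fell (median 0.51). Over all genes tested 14.9% rose and 13.0% fell, so the count of falls was near that share. Lama1, the laminin alpha-1 chain gene, was at 306, 344, 344 and 333 CPM in controls and 199.5, 179.5, 201 and 194 CPM in cKO ovaries (-0.78 ± 0.06), and Lama4, of vessels and stroma, at 69.3, 74.7, 79.2 and 73.8 CPM and 140.5, 125, 137 and 153 CPM (0.90 ± 0.07). Nid2, a nidogen gene, rose by 1.45, and the integrin genes moved both ways, with Itga7 (1.52) and Itga8 (1.31) higher and Itga6, a laminin receptor, lower (-0.51). Krt18 and Krt8, the partner keratins of simple epithelium, were at 165, 150.0, 154 and 154 CPM and 183, 173, 179 and 181 CPM in controls and at 59.2, 60.7, 55.3 and 54.5 CPM and 80.8, 78.5, 72.7 and 69.4 CPM in cKO (-1.44 and -1.25). The tight junction gene Cgn (-1.13) and the cadherin gene Cdh1 (-0.52), which encodes E-cadherin, fell, and Cdh11 (0.81) and Cdh6 (1.20) rose. In the cadherin and claudin list 16 of 42 rose and 7 fell, the latter count being 4 without cKO replicate 3. Here, too, the falls were near the 13.0% of all genes. The Cdh1 call was lost in the model of all 24 libraries (adjusted p = 0.24).

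Transcription factor families differed in direction. Over all genes tested 14.9% rose and 13.0% fell. Of 3 Iroquois genes tested 2 fell, Irx3 from 120.4, 133, 135 and 142 CPM to 47.7, 39.4, 48.7 and 39 CPM (-1.60 ± 0.09) and Irx5 by 1.04. Hox genes, which mark positions along the body axis, rose in 11 of 27 and fell in 1, among them Hoxa3 (1.24) and Hoxc6 (0.44). Of 6 Gata genes tested 1 rose, 2 fell and 3 did not pass, so the share that rose was close to that of all genes. Gata1 was at 19.8, 28.2, 21.9 and 16.2 CPM in controls and 3.01, 7.34, 5.94 and 6.35 CPM in cKO ovaries (-1.92 ± 0.24), and Gata2 changed by 0.95. Gata4, a factor of supporting and stromal gonad cells, did not pass (-0.25, edgeR adjusted p = 0.0637), but passed without control replicate 1 (4.4e-05). Gata1 is also an erythroid gene, and the erythroid list varied among libraries as given below. Of 21 forkhead genes, Foxl2 (-0.51) and Foxo6 (-1.09) fell and Foxc2 (2.14) and Foxs1 (0.52) rose. Both forkhead counts lay below the shares of all genes tested, of which 13.0% fell and 14.9% rose. Rhox8, a reproductive homeobox gene of a multigene family, was at 5.28, 6.73, 3.85 and 4.91 CPM and 0.836, 0.247, 0.344 and 0.295 CPM (-3.57 ± 0.32), and the cystatin gene Cst12 changed by -1.42, also in a multigene family.

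Ion channel and receptor genes of excitable cells moved in both directions. Of 54 potassium channel genes 20 rose and 14 fell, with Kcnn3 (1.58) higher and Kcng4 (-2.05) lower beside Kcnq1. Asic1, an acid-sensing channel gene, was at 0.989, 1.02, 1.11 and 1.08 CPM in controls and 6.94, 10.5, 11.2 and 8.93 CPM in cKO ovaries (3.14 ± 0.20, edgeR adjusted p = 1.11e-07). Glutamate receptor genes rose in 8 of 14, including Grik1 (2.97) and Gria1 (2.42). Oprk1, the kappa opioid receptor gene, fell, with 1.98, 2.81, 3.93 and 4.58 CPM in controls and 0.167, 0.0825, 0.0861 and 0.148 CPM in cKO (-4.66 ± 0.41). The endothelin receptor gene Ednra (1.12) and prostaglandin genes rose, the latter in 9 of 17. Ptgs1, a cyclooxygenase gene, was at 6.59, 9.79, 7.56 and 9.41 CPM and 24.5, 22.1, 29.4 and 25.3 CPM (1.60), the prostacyclin synthase gene Ptgis rose by 1.20, and Hpgd, whose enzyme inactivates prostaglandins, by 1.31.

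Few genes of basic cell functions passed. Of 76 oxidative phosphorylation genes 1 rose and 1 fell (median -0.04), the latter being Cox7a1, a tissue-specific subunit gene (-1.61). The number that rose was 0 without control replicate 3 or cKO replicate 1 or 4 and 2 without control replicate 1 or cKO replicate 2, and the number that fell was 2 without control replicate 1 or 2; the model of all 24 libraries gave 0 risen and 2 fallen. Ribosomal protein genes rose in 7 of 76, by 0.22 to 0.32, and in 35 without control replicate 1, 4 without cKO replicate 1 and 3 without cKO replicate 3 or 4. In the cell division list Ccnd1, the cyclin D1 gene, was at 65.9, 60.4, 60.6 and 50.9 CPM in controls and 94.6, 100.0, 91.5 and 101 CPM in cKO ovaries (0.70 ± 0.08), and 20 of 23 genes did not pass. Immediate early genes, which respond to stimuli within minutes, rose in 7 of 14: Jun was at 71.1, 66.5, 76.1 and 66.3 CPM and 118, 124, 115 and 108 CPM (0.73), and Fos at 2.72, 4, 5.56 and 2.91 CPM and 5.6, 19.9, 8.35 and 14.8 CPM (1.67, edgeR adjusted p = 0.0192), a call lost without control replicate 1, 2 or 4 (adjusted p = 0.0551 to 0.0959) or in the model of all 24 libraries (0.0968). In that model 3 immediate early genes rose. Interferon response genes fell in 6 of 16 (median -0.39), led by Bst2, at 29.7, 23, 26.4 and 25.5 CPM in controls and 14.4, 12.2, 13.3 and 14.9 CPM in cKO (-0.93 ± 0.10), and in 3 in the model of all 24 libraries.

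Markers of other cell types moved with genotype. All 12 endothelial genes rose, with summed levels of 365.9 to 419.8 CPM in controls and 649.0 to 703.2 CPM in cKO ovaries, and 13 of 15 theca and stroma genes rose, with sums of 5472 to 5912 and 12010 to 14160 CPM. Of 13 macrophage and leukocyte genes 9 rose (sums 103.0 to 212.0 and 242.4 to 371.9 CPM), Csf1r, the macrophage growth factor receptor gene, from 12.1, 15.1, 13.2 and 14.8 CPM to 34.7, 34.4, 36.2 and 38.8 CPM (1.39 ± 0.09). Chemokine and complement genes rose in 14 of 23, with C1qb (1.71) and Cxcl12, a stromal chemokine, at 1.02. Their part in the changes of matrix, vessel growth and signalling genes was not tested. Surface epithelium markers gave 2 rises and 5 falls of 10 (sums 1319 to 1531 and 1060 to 1181 CPM), with Lrrn4 (1.49) and Msln (1.12), the mesothelin gene, higher beside the lower keratins; 3 fell in the model of all 24 libraries. Duct markers were at 103.6 to 122.4 CPM in controls and 71.93 to 90.31 CPM in cKO, where Pax8 (1.09) rose and Epcam (-0.97) fell, 1 of the 2 that fell being lost without any 1 of control replicates 2 to 4 or cKO replicates 1 to 3. Sertoli cell genes summed to 106.3 to 115.5 and 104.4 to 120.6 CPM, with Sox9 at 6.71 and 7.64 CPM (adjusted p = 0.426). Adrenal cortex enzymes Cyp21a1 and Cyp11b1 did not pass the filter, and the adrenal list summed to 49.29 to 73.61 CPM in controls and 42.23 to 59.48 CPM in cKO. Fat, striated muscle and nerve markers summed to 3.05 to 5.71, 7.16 to 8.51 and 40.7 to 50.5 CPM in controls and 3.47 to 5.09, 10.6 to 13.1 and 36.2 to 47.5 CPM in cKO.

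Blood cell transcripts varied within both genotypes. Erythroid genes summed to 222.4 to 1642 CPM in controls and 186.4 to 401.9 CPM in cKO ovaries, and 1 of 7, Hba-a2 (-0.98), a hemoglobin gene with a near-identical copy, passed. Its call was lost without control replicate 2 or 3 or any 1 of the 4 cKO replicates, and in the model of all 24 libraries (adjusted p = 0.417). Neutrophil granule genes, a list added after the data were seen, summed to 7.83 to 1006 CPM in controls and 70.1 to 1563 CPM in cKO, and liver genes, also added, to 3.92 to 34.4 and 8.27 to 30.03 CPM. The second principal component, 17.3% of the variance, did not separate the genotypes.

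The effect of SF-1 loss at PND1 was set against that before and after cyst breakdown in 1 edgeR model of all 24 libraries. It differed from the effect at ED17.5 for 325 of 17435 genes (1.86%), 209 of them higher at PND1, and from the effect at PND4 for 18 (0.103%), 12 higher; without ED17.5 cKO replicate 3 the first count was 291. Id3, the BMP target, had log2 fold changes of -0.24 at ED17.5, 0.64 at PND1 and 1.07 at PND4, so that its direction turned between the first 2 ages (difference 0.88 ± 0.08, adjusted p = 2.4e-06; PND1 against PND4 -0.43 ± 0.08, adjusted p = 0.0346). Cdkn1c, which encodes the cell cycle inhibitor p57, was at -0.87 at ED17.5, 0.18 at PND1 and 0.38 at PND4 (difference from ED17.5 1.05 ± 0.13, adjusted p = 8.75e-05). Chodl, a lectin gene, was at -1.80 at ED17.5, 0.82 at PND1 and 1.32 at PND4, and Grik1 at 0.33 at ED17.5, 2.97 at PND1 and 2.95 at PND4, both with a higher effect at PND1 than at ED17.5 (2.62 ± 0.34, adjusted p = 0.000143, and 2.64 ± 0.45, adjusted p = 0.00305). Vessel and stromal genes with a higher effect at PND1 than at ED17.5 were Angpt2 (1.32), Igfbp3 (1.04), Pdgfrb (0.98), Meox1 (1.10), Tnc (1.20) and Col6a5 (1.18), and the R-spondin receptor gene Lgr6 (2.32). Lower effects at PND1 than at ED17.5 were found in Strip2 (0.57 at ED17.5, -0.73 at PND1 and -1.02 at PND4), Tmem114 (-1.67), Ube2c (-1.0) and Depdc1b (-1.02) and the bridge and cytokinesis genes Kif23 (-0.58), Racgap1 (-0.59), Anln (-0.49) and Tex14 (-0.57). Some of these were higher in cKO at ED17.5 and did not pass at PND1. They were Ube2c (0.69 and -0.32), Depdc1b (0.70 and -0.33), Kif23 (0.71 and 0.12), Racgap1 (0.72 and 0.12), Anln (0.57 and 0.08) and Tex14 (0.30 and -0.27). Of these 4 cytokinesis genes each was above adjusted p = 0.05 without ED17.5 cKO replicate 3, at 0.0622 to 0.0831. Against PND4, the differences in list members were in Oprk1 (-3.14 at ED17.5, -4.66 at PND1 and -0.80 at PND4), Nrp2, a semaphorin and VEGF receptor gene (0.85 at ED17.5, 0.96 at PND1 and 0.06 at PND4), Ccnd1 (0.58 at ED17.5, 0.70 at PND1 and -0.12 at PND4) and Fras1, a basement membrane gene (0.57 at ED17.5, 0.49 at PND1 and -0.26 at PND4). Mean Oprk1 in controls was 13.2 CPM at ED17.5, 3.32 CPM at PND1 and 0.435 CPM at PND4, where cKO ovaries were at 0.243 CPM. At PND4 both genotypes thus lay below about 1 CPM, where depth limits calls, and a large fall could hardly be seen. Among other genes that differed from PND4, log2 fold changes at PND1 and PND4 and their difference are given in that order. The difference was above 0 for Pitpnm3 (1.12, -0.56, 1.68), Grhl3 (0.04, -1.73, 1.77), Tnni1 (-1.23, -2.62, 1.39) and Plekha6 (1.87, 0.84, 1.03). It was below 0 for Trim66 (-2.12, -0.47, -1.65), Astn1 (0.25, 1.41, -1.16) and Bace2 (-1.27, -0.37, -0.90). Grhl3 and Astn1 did not pass at PND1 in this model (edgeR adjusted p = 0.922 and 0.291). Mpo, a neutrophil granule gene, was at -4.42 at ED17.5, 4.12 at PND1 and -2.20 at PND4, and this gene lay between 0 and 5.19 CPM in PND1 controls and between 3.43 and 121 CPM in cKO ovaries. At PND1 the Mpo call (adjusted p = 0.0454) was lost in 7 of the 8 fits that left out a library, with adjusted p from 0.082 to 0.109.

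**Figure D5:**
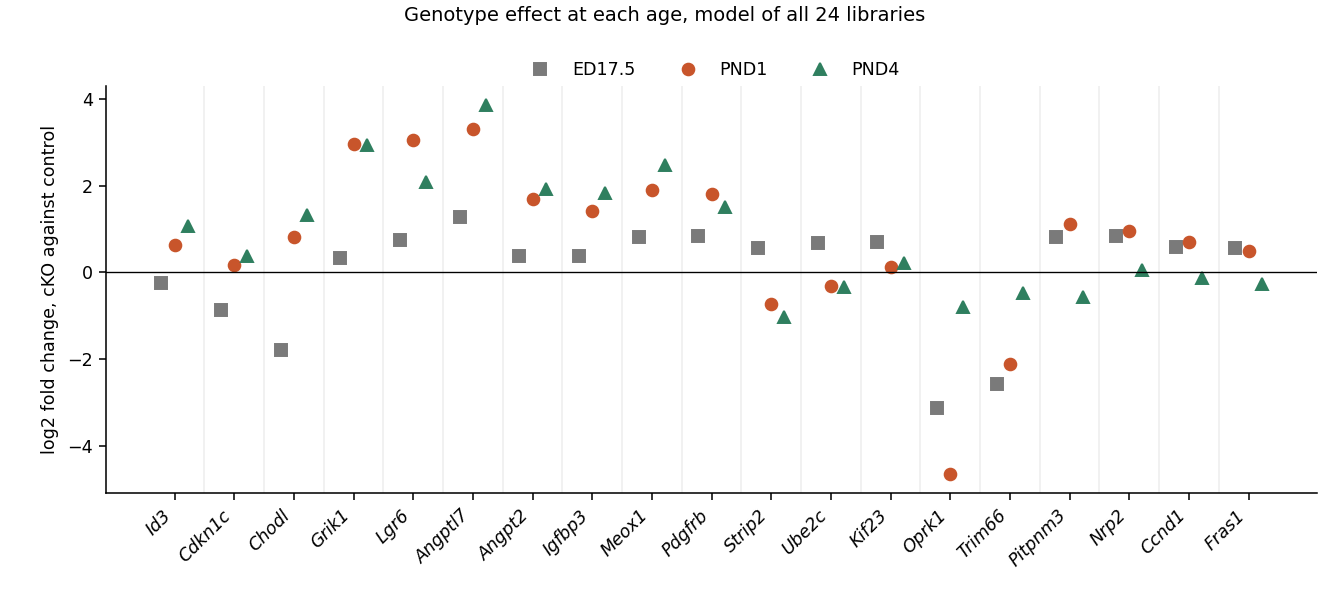
Log2 fold change of cKO against control (vertical axis) at ED17.5 (squares), PND1 (circles) and PND4 (triangles) from the model of all 24 libraries, for 19 genes whose effect at PND1 differed from that at ED17.5 or PND4. Id3 goes from -0.24 to 1.07, Chodl turns from -1.80 to 1.32, and Oprk1 is lowest at PND1 (-4.66). At PND4 Oprk1 lies near the floor in both genotypes, at means of 0.435 CPM in controls and 0.243 CPM in cKO ovaries.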

How the data were processed

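RNA-seq of whole ovaries was deposited by the authors as 1 table of raw counts per gene, whole numbers with no normalization. Per the labels' protocols, poly(A) RNA (100 ng) went into directional libraries, and Trimmomatic, STAR and HTSeq, besides DESeq2 and build GRCm38, stand in the submitters' processing notes; versions, annotation release and strand setting were not given in the sources used here, so reads of overlapping or antisense genes may be shared. The 8 PND1 columns were fitted alone, so that the other ages did not enter the spread. Of 55487 genes, 15756 passed edgeR's filterByExpr (minimum count 10, minimum total 15); TMM scaling, a robust quasi-likelihood test and Benjamini-Hochberg adjustment at 0.05 followed (R 4.3.3, edgeR 4.0.16, limma 3.58.1; DESeq2 1.42.0 as alternative). The SE is the log2 fold change divided by the root of F. CPM are counts scaled by TMM library sizes. On simulated data for this comparison (15756 genes) the test called 29, 46, 48 and 50 of 50 genes planted at 1.5, 2, 4 and 8-fold, and 12 of 15556 unchanged genes. Exact permutations ran over 70 assignments. Differences between ages came from interaction terms in 1 edgeR model of all 24 libraries. Coordinates are from GENCODE M21 (GRCm38), which held 99.38% of the gene IDs. The genes named were Nr5a1 and Amhr2, the 10 largest rises and falls at 20 CPM or more without overlap, up to 5 called members per list by smallest p plus members that define a list's role, and genes from the 5 largest age differences per direction at 5 CPM or more. Not every gene that the rule picked is named, those with age differences included. Of 236 named genes 144 came from the ranked parts of this rule. The other 92, list members with a role, Chit1, Kcnf1 and Susd3 included, were chosen with their values in view. Promoters were searched as RefSeq windows of 300 bases. Alternatives were other scalings, filters, DESeq2, a replicate block, library number and leaving out each library. The members and lists were chosen with earlier results of these data known.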

Additional observations from a re-analysis of the deposited data

Results flagged for a closer look

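In 22 of 506 groups of 4 libraries checked, over the genes named and the marker sums, 1 library lay far from the other 3 by Dixon's test at 95%, and chance gives such a gap in about 1 group in 20 (gene levels share libraries and are not independent). cKO replicate 1 stood apart with Gng13 (6.103 CPM), Rhox8 (0.836 CPM) and Tmem114 (3.678 CPM). cKO replicate 2 stood apart with Dazl (269 CPM), Epcam (40.5 CPM), Gas1 (302.9 CPM) and Tgfbr2 (134.5 CPM). cKO replicate 3 stood apart with Notch2 (241.7 CPM). cKO replicate 4 stood apart with Apaf1 (61.32 CPM), Ngfr (100.4 CPM), the sum of Leydig and theca steroid cells (24.87 CPM) and the sum of neutrophil granules (1563 CPM). Control replicate 1 stood apart with Ddx4 (178.9 CPM), Figla (87.87 CPM), Fstl1 (714.7 CPM), Ptch1 (76.16 CPM), Rspo1 (52.84 CPM), Sycp3 (381 CPM), Tgfbr2 (57.62 CPM) and the sum of granulosa cells of growing follicles (924.5 CPM). Control replicate 2 stood apart with Pik3r1 (176.1 CPM). Control replicate 4 stood apart with Nrp2 (22.57 CPM).

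The effect of SF-1 loss differed between PND1 and another age in 47 cases by an interaction term in edgeR. The log2 difference of PND1 minus ED17.5 was above 0 for Adcyap1r1 (0.66), Angpt2 (1.32), Bgn (0.68), Bmf (0.65), Bmp2 (0.74), Cdkn1c (1.05), Chodl (2.62), Col6a5 (1.18), Fstl1 (0.45), Grik1 (2.64), Hpgd (0.65), Id3 (0.88), Igfbp3 (1.04), Lgr6 (2.32), Loxl1 (0.99), Meox1 (1.10), Mmp2 (0.52), Mpo (8.53), Ndnf (0.79), Nr1h4 (2.59), Ntrk3 (0.95), Pdgfrb (0.98), Prelp (0.86), Tgfb2 (0.73), Timp2 (0.55) and Tnc (1.20). It was below 0 for Anln (-0.49), Atm (-0.59), Depdc1b (-1.02), Kif23 (-0.58), Racgap1 (-0.59), Strip2 (-1.30), Tex14 (-0.57), Tmem114 (-1.67) and Ube2c (-1.0). Without ED17.5 cKO replicate 3 the difference did not pass for Anln, Bmf, Bmp2, Hpgd, Kif23, Ndnf, Racgap1 and Tex14 (adjusted p = 0.052 to 0.0831). The difference of PND1 minus PND4 was above 0 for Ccnd1 (0.82), Fras1 (0.75), Grhl3 (1.77), Nrp2 (0.89), Pitpnm3 (1.68), Plekha6 (1.03) and Tnni1 (1.39), and below 0 for Astn1 (-1.16), Bace2 (-0.90), Id3 (-0.43), Oprk1 (-3.86) and Trim66 (-1.65). Both contrasts use the same PND1 libraries.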

How the results depend on the processing

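Leaving out each library in turn gave 3580 to 4850 called genes. Fits restricted to libraries 1 to 12 gave 2688 calls (1442 higher, 1246 lower). Those restricted to libraries 13 to 24 gave 1805 (1295 higher, 510 lower), with 357 list members called. Each of these fits had 2 libraries per genotype, and control replicate 1 (library 21) was in the second. Why the counts differed was not tested. Other counts stayed within 1.5 times the main count of 4393: 4176 in the model of all 24 libraries, 4337 with DESeq2 size factors, 4257 with upper quartile scaling, 4343 in DESeq2, 4794 without a filter, 4226 at a mean of at least 1 CPM and 4233 with library number group (1 to 12 or 13 to 24) as covariate. No scaling moved the median of all genes by more than 0.03. With the longer motif CAAGGTCA the shares were 4.65% of genes that fell and 1.28% of those that rose at least 2-fold, against 7.91% and 2.56%, a shorter list by construction. Same-numbered libraries correlated at 0.263, 0.08, -0.055 and -0.455 in their deviations from the group means. These 4 values cannot show whether replicate numbers pair the samples. The replicate block gave 4417 calls, 53.8% higher. Differences from ED17.5 numbered 291 without ED17.5 cKO replicate 3 and 310 without a filter, against 325, and those from PND4 24 without a filter, against 18. Of 206 named genes that passed, 178 passed with the same direction in every fit of 7 or more libraries. Among losses not given beside the genes, Mpo was lost with the replicate block (edgeR adjusted p = 0.158), without a filter (0.08) and with library number group as covariate (0.0728). Fos was lost without a filter (edgeR adjusted p = 0.0789). The others came in the model of all 24 libraries for Col4a4, Foxs1, Gata2, Rspo2, Tle6 and Ube2c (adjusted p = 0.0503 to 0.136). In that model the number of fallen members was also 1 for the Notch, Hedgehog, Sertoli, neuron and duct lists and 0 for growing oocytes, PDGF and VEGF, prostaglandin, erythroid, Leydig, and theca and stroma genes, and that of risen members 1 for forkhead, cystatin, growing follicle granulosa and duct genes and 0 for adipocyte genes. Depth limits calls below about 1 CPM, near 12 counts per library.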
